A study of Homo sapiens with 12 samples.

Results

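The 9 transcription factor genes that mark squamous epithelium were followed through models of acquired EGFR inhibitor resistance in head and neck squamous cell carcinoma. They are TP63, SOX2, PITX1, PAX9, TFAP2A, KLF4, KLF5, EHF and ELF3, taken by name as a set of squamous lineage regulators out of 58051 gene identifiers counted. FaDu (hypopharyngeal carcinoma) and Cal27 (tongue carcinoma) are established cell lines, and both carry the label genotype WT. From each line came parental cells, an afatinib-resistant population (AfaR) and an erlotinib-resistant population (ErlR), selected by stepwise increases of drug. Afatinib irreversibly inhibits EGFR and its ERBB relatives, and erlotinib inhibits EGFR. By the study's methods, resistant stocks were held under drug and cultured without it before experiments. Poly(A) RNA of each of the 6 groups was sequenced in 2 libraries labelled as biological replicates, 12 libraries in all. Each resistant model is a single population, so a difference between a model and its parent rests on a single selection. Selection and the later culture with drug cannot be told apart in it. The p-values measure only the spread between these libraries. FaDu and Cal27 were grown in different media, so line and medium cannot be told apart. All libraries share 1 batch label.

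In stratified epithelium, p63 (TP63) maintains the basal cell state, and SOX2 and PITX1 act with it in squamous cancers. PAX9 and TFAP2A pattern oral and facial epithelium and help keratinocytes mature. KLF5 supports proliferating basal cells whereas KLF4 serves the differentiating layers, and EHF and ELF3 are epithelium-specific ETS factors linked to differentiation and barrier function.

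The genes lie on 8 chromosomes (GRCh38). TP63 (ENSG00000073282) spans chr3:189631416-189897279 and SOX2 (ENSG00000181449) chr3:181711924-181714436, 7916980 bp apart on the same arm, both on the plus strand. PITX1 (ENSG00000069011) lies at chr5:135027735-135034813, TFAP2A (ENSG00000137203) at chr6:10393186-10419659 and KLF4 (ENSG00000136826) at chr9:107484852-107490482, all on the minus strand. The plus strand holds PAX9 (ENSG00000198807) at chr14:36657568-36679715, KLF5 (ENSG00000102554) at chr13:73054976-73077542, EHF (ENSG00000135373) at chr11:34621093-34661057 and ELF3 (ENSG00000163435) at chr1:202007945-202017188. Counts were taken over the exons of each gene.

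The promoters of the genes that fell together in Cal27 AfaR are shown first, because these 5 genes fell in the same comparison. RefSeq start sites on GRCh38.p14 were matched for all 9 genes, with 13 windows in total. The 250 bases before the most upstream listed start were read on the gene's strand, 5′ to 3′. All 5 lie on the plus strand: TP63 at chr3:189631139-189631388, PAX9 at chr14:36657318-36657567, KLF5 at chr13:73054726-73054975, EHF at chr11:34624007-34624256 and ELF3 at chr1:202010337-202010586. Capitals mark every match, on either strand, of the 6 motifs searched, which were the KLF core CACCC, the ETS core GGAAG, the AP-2 palindrome GCCNNNGGC, the SOX core CATTGT, the E-box CACCTG and the TATA box TATAAA.
TP63: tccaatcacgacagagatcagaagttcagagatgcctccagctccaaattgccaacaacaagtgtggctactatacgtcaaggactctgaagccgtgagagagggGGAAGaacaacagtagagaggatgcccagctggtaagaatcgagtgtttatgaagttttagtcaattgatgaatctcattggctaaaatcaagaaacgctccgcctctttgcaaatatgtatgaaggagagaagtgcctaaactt
PAX9: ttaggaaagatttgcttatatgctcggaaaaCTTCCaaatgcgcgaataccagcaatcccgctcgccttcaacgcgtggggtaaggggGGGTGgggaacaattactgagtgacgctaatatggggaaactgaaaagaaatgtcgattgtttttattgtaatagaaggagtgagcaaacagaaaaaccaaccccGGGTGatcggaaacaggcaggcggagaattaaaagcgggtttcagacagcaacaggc
KLF5: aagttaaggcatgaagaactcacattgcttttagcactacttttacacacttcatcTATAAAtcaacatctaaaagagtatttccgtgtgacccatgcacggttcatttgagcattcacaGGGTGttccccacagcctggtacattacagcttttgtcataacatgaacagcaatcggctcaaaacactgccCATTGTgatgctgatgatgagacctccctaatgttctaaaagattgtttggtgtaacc
EHF: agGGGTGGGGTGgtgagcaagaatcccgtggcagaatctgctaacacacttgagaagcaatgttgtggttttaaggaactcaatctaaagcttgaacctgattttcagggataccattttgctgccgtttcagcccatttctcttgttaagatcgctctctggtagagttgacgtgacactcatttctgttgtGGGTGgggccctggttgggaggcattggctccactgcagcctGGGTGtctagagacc
ELF3: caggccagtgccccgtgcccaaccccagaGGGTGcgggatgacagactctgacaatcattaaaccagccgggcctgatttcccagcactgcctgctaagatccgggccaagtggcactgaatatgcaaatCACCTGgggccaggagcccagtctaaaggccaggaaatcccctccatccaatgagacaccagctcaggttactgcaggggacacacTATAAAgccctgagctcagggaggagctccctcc

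No motif was found in all 5 windows, and among the 13 windows of the 9 genes 9 held the KLF core and 7 the ETS core. The KLF core stood in the windows of PAX9, KLF5, EHF and ELF3, with 4 matches in EHF, the first pair side by side, and it was present in 54.7% of 35116 RefSeq promoters of the same length, 2.91% of which held 4 or more. The ETS core stood in the TP63 and PAX9 windows and in 65.1% of all promoters. The printed windows of KLF5 and ELF3 each held a TATA box, found in 10.7% of all promoters. ELF3 held the only E-box of these 5 windows (17.5% of all promoters), KLF5 the only SOX core (9.29%), and the AP-2 palindrome (19.8%) was in none of them. PAX9, KLF5 and EHF each have 2 listed starts, and only the window of the most upstream start is printed. The second KLF5 window held 2 KLF cores and neither a TATA box nor a SOX core. In the second EHF window there was 1 SOX core and no KLF core. That of PAX9 held 2 KLF cores, 2 ETS cores, 1 SOX core and 1 E-box. These matches describe letters, not bound sites. The TP63 window belongs to the longer p63 form, and gene-level counts cannot separate the long form from ΔNp63, the form of basal keratinocytes.

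Levels are given as CPM, read counts scaled to the total on genes of their library, after TMM normalization over the 12 libraries, and group values are means ± SD (n = 2). Between 16334937 and 23399259 reads per library fell on genes. Changes are log2 fold changes from edgeR's quasi-likelihood test with Benjamini-Hochberg adjustment over every gene tested, and a gene is said to have risen or fallen at an adjusted p under 0.05. All 9 genes passed the low-count filter in every fit. In bulk RNA, fewer cells expressing a gene and less RNA per cell cannot be told apart. The summed level of 8 epithelial markers ran from 2172 CPM in a Cal27 AfaR library to 17186 CPM in a FaDu parental library. Abundant keratins, KRT8 among them, weigh most in this sum. No threshold was set for it, so it describes levels and does not test the identity of the lines.

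Divided by exon length, the order of the levels differed between the parental lines. The length covers all annotated exons of a gene (7191 bases for ELF3, 3893 for KLF5). The orders and shares per kb given here and below therefore depend on the annotation. Undivided, ELF3 (156 ± 15.7 CPM) stood above KLF5 (110 ± 8.75 CPM) in FaDu parental cells. In FaDu parental cells KLF5 was highest (28.3 ± 2.25 CPM per kb), followed by TP63 (23.4 ± 2.10) and ELF3 (21.7 ± 2.19), whose libraries overlapped. PITX1, PAX9, TFAP2A, KLF4 and EHF followed in that order without overlap between neighbours. SOX2 was lowest at 1.95 ± 0.306 CPM per kb. In Cal27 parental cells EHF led at 126 ± 19.3 CPM per kb, above TP63 (30.5 ± 0.702) and KLF5 (21.8 ± 1.40), with no overlap between these neighbours. Lower in that order, the libraries of TFAP2A and ELF3 overlapped, and SOX2 was again last.

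**Figure D1:**
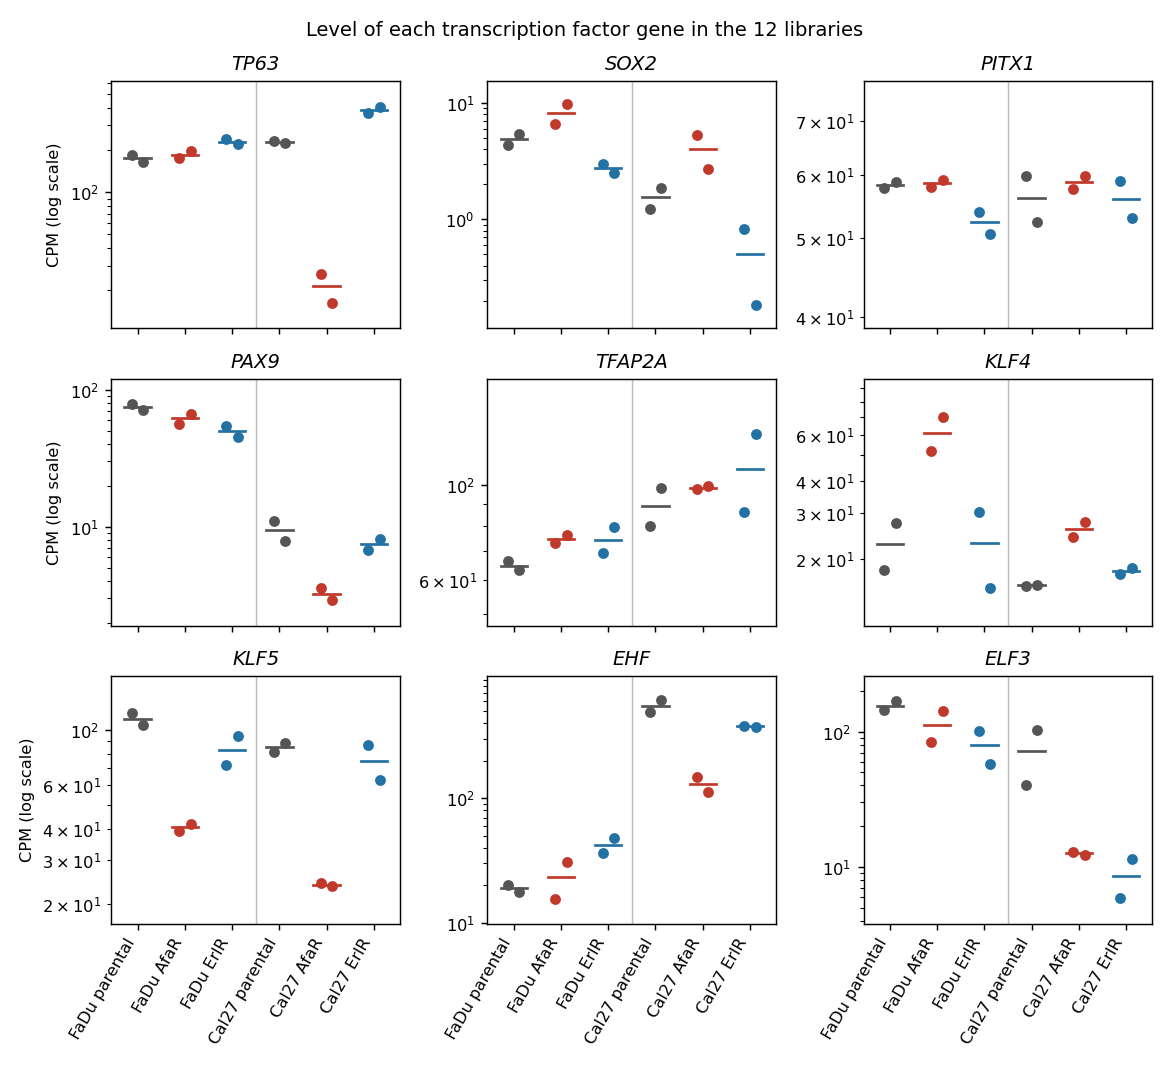
Level of each gene in CPM on a log axis whose range differs between panels, with a point per library and a bar at the mean of 2 libraries. Grey marks parental, red AfaR and blue ErlR cells. TP63 dropped to 26.3 and 16.4 CPM in Cal27 AfaR, while PITX1 stayed between 50.7 and 59.8 CPM in all 12 libraries.

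Between the parental lines, EHF and TFAP2A were higher and SOX2, PAX9 and ELF3 lower in Cal27. These were 5 of 9 genes, where 55.6% of all 16240 genes tested differed (28.7% higher and 26.8% lower). The lines did not overlap for 8 of 9 genes, nor for 79.5% of all. EHF had 20.1 and 17.8 CPM in FaDu parental against 492 and 612 CPM in Cal27 parental, a mean 29.1 times higher (log2 fold change 4.86, standard error 0.30, adjusted p = 8.31e-08). PAX9 had 78.7 and 71.5 CPM in FaDu against 11.0 and 7.93 CPM in Cal27 (log2 fold change -2.99, standard error 0.19, adjusted p = 9.86e-08). Neither gene overlapped between the lines. SOX2 was at 4.37 and 5.45 CPM in FaDu against 1.22 and 1.87 CPM in Cal27 (-1.66, adjusted p = 0.00783), a call lost without Cal27 parental replicate 1 (adjusted p = 0.0609). ELF3 differed less firmly, with 145 and 167 CPM against 40.2 and 103 CPM (-1.12, adjusted p = 0.0292), and lost its call with DESeq2 (adjusted p = 0.0663) and without FaDu parental replicate 1 (0.0554), FaDu parental replicate 2 (0.101) or Cal27 parental replicate 1 (-0.60, 0.211). Without Cal27 parental replicate 2 it was -1.96 (adjusted p = 0.00196). TFAP2A was 1.38 times higher in Cal27 (0.46, adjusted p = 0.0363) and lost its call without either FaDu parental library or without Cal27 parental replicate 2 (adjusted p between 0.100 and 0.247).

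The other 4 genes did not pass. The log2 fold change was 0.38 for TP63 (adjusted p = 0.0710), -0.38 for KLF5 (0.0641), -0.52 for KLF4 (0.124) and -0.05 for PITX1 (0.712). Leaving out either FaDu ErlR library called KLF4 and KLF5 lower, either Cal27 ErlR library called KLF5 lower, and either Cal27 AfaR library called TP63 higher (adjusted p between 0.0144 and 0.0457). Scaled to the ERCC spike-ins the median of all genes was 0.62 in this comparison, and PITX1 read 0.53 and TP63 0.96 and both passed, while SOX2 (adjusted p = 0.0613) and ELF3 (0.271) no longer did. The PITX1 value lay below that median. Of the 17 tested genes within 1 Mb of EHF, 15 were also higher in Cal27, with a median log2 fold change of 2.72, where 28.7% of all genes were higher. Around ELF3, 13 of 29 neighbours were lower and 4 higher, where 26.8% of all genes were lower. Other neighbourhoods also moved. In edgeR at an adjusted p under 0.05, 3 of 3 around SOX2 and 5 of 11 around PAX9 were lower and 0 higher. Around TP63, 4 of 6 were higher and 0 lower. Of 21 around PITX1, 2 were higher and 4 lower, and of 11 around TFAP2A, 2 and 2. Around KLF5 1 of 5 was higher and 1 lower, and around KLF4 1 of 3 was higher and 0 lower.

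In Cal27 AfaR cells, TP63, PAX9, KLF5, EHF and ELF3 fell and KLF4 rose, 6 of 9 genes, beside 37.6% of all 15269 genes tested. Of the 9 genes, 5 were lower, where 18.2% of all genes were, and 1 was higher, where 19.5% were. Calls over all genes numbered 5745, and 3381 without AfaR replicate 1. The groups did not overlap for 7 of 9 genes, nor for 72.1% of all. The median log2 fold change of the 9 genes was -1.54, and that of all genes was 0.00 to 2 decimals.

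TP63, the basal regulator, moved most. It had 231 and 223 CPM in parental libraries and 26.3 and 16.4 CPM in Cal27 AfaR, a mean 10.7 times lower. On the log2 scale this was -3.41 (standard error 0.21, adjusted p = 7.70e-06). Of its partners, PITX1 (0.07, adjusted p = 0.721) did not pass, with 59.7 and 52.5 CPM in parental and 57.6 and 59.8 CPM in AfaR cells. SOX2 was read at 1.22 and 1.87 CPM in parental and 5.34 and 2.73 CPM in AfaR cells. Its groups did not overlap, yet the log2 fold change of 1.39 had a standard error of 0.54 and an adjusted p of 0.0689, and it passed in the fits of 4 (0.0313) and 12 libraries (0.0308) and without either ErlR library (0.0303 and 0.0271).

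Among the factors of oral epithelium, PAX9 went from 11.0 and 7.93 CPM to 3.56 and 2.90 CPM (-1.54, standard error 0.27, adjusted p = 0.00218). TFAP2A did not pass (0.14, adjusted p = 0.592), with 80.1 and 98.4 CPM in parental and 97.7 and 99.4 CPM in AfaR cells. The groups overlapped for TFAP2A and PITX1 only.

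The Krüppel-like pair moved in opposite directions. KLF5 fell from 81.1 and 88.8 CPM to 24.2 and 23.5 CPM (-1.83, standard error 0.17, adjusted p = 6.18e-05). KLF4 rose from 15.9 and 16.0 CPM to 24.4 and 27.8 CPM (0.72, standard error 0.16, adjusted p = 0.00655), though its adjusted p was 0.0563 in the fit of 12 libraries. The ETS pair both fell. EHF went from 492 and 612 CPM to 149 and 112 CPM (-2.08, standard error 0.18, adjusted p = 3.72e-05), and after this drop it still had the highest level per kb of the 9 genes (29.8 ± 6.00 CPM per kb). ELF3 went from 40.2 and 103 CPM to 12.9 and 12.3 CPM (-2.5, standard error 0.42, adjusted p = 0.00159). Its parental libraries differ widely, and without parental replicate 2 the value was -1.67 (adjusted p = 0.00103).

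Of 16 tested basal keratinocyte genes that p63 binds, 13 were lower in Cal27 AfaR and 0 higher at an adjusted p under 0.05 in edgeR (14 of 16 had an unadjusted p under 0.05), with a median log2 fold change of -1.93. The basal keratin KRT14 went from 192 ± 113 to 1.27 ± 0.500 CPM. The desmosomal plaque gene PKP1 (-3.84) and the hemidesmosomal collagen gene COL17A1 (-3.69) followed. Of 8 tested genes of differentiated squamous cells, 5 were lower and 1 higher, with a median of -2.30, or -2.29 with the 2 genes with 0 counts in AfaR set to their bound. S100A7 had 5.94 ± 2.97 CPM in parental cells and 0 counts in both AfaR libraries, at least 70.9-fold lower against a floor of 3 counts over the group. SPRR1B, a cornified envelope precursor, was likewise at 0 counts, at least 10.8-fold lower than the parental mean. That mean was low and uneven, at 0.902 ± 0.782 CPM from 31 counts over the parental libraries. SCEL fell (-3.75), while FLG, the filaggrin gene, rose from 1 count in the 2 parental libraries (0.0291 CPM) to 1.80 CPM.

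Of 21 other epithelial regulators tested, 12 were lower and 3 higher, with a median of -1.54. OVOL1 (-4.21) and GRHL1 (-4.01), which guard the epithelial state, and the homeobox gene BARX2 (-4.13) fell most. MAF (2.75) and TRPS1 (0.63) were among those that rose. Of 14 tested family relatives of the 9 genes, 4 were lower and 3 higher. The ETS gene SPDEF (-4.47), TP73 (-1.66) and TFAP2C (-1.07) were lower, and KLF9 (3.11), KLF6 (0.99) and KLF10 (0.67) were higher. SPDEF and BARX2 had few reads. Over the 2 libraries of a group, SPDEF went from 48 to 2 counts and BARX2 from 71 to 4.

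**Figure D2:**
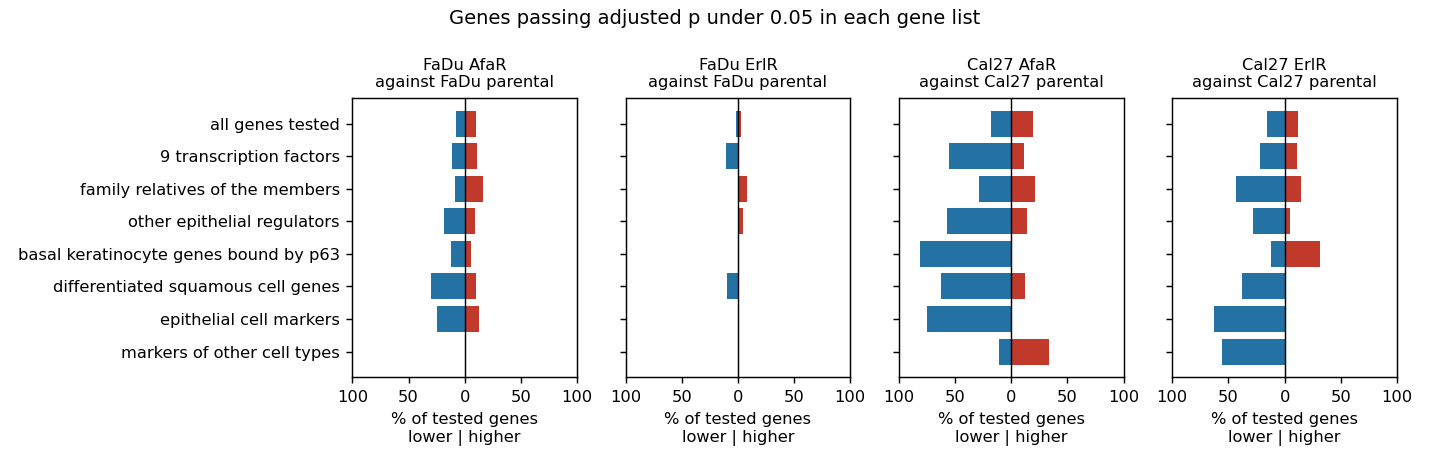
Percent of the tested genes of each list that were lower (blue, to the left) or higher (red, to the right) at an adjusted p under 0.05, in the 4 comparisons of resistant with parental cells. In Cal27 AfaR, 13 of 16 basal genes bound by p63 were lower, and in Cal27 ErlR 5 of 16 were higher and 2 lower.

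Marker genes of other cell types moved in the same model. Of 9 tested out of 14, COL1A1 (3.15), LUM (8.09) and PDGFRB (2.91) rose and CD68 fell (-1.11), and their summed level was 348 to 366 CPM in Cal27 AfaR against 67.5 to 80.5 CPM in parental cells. COL1A1 alone rose from 30.4 ± 7.12 to 269 ± 5.27 CPM. CD3E was at 0 in both AfaR libraries, and 6 of the 14, among them PDGFRA, DCN and THY1, were under 1 CPM in both. Of the 8 epithelial markers, 6 were lower and 0 higher in edgeR (7 had an unadjusted p under 0.05), KRT14 (-7.24), KRT6A (-4.62) and EPCAM (-2.84) most, and their sum was 2172 to 2205 CPM against 5302 to 6863 CPM in parental cells. The study reported a gene signature of epithelial-mesenchymal transition in this model. CDH1 RNA was at 378 ± 41.2 CPM in parental and 70.3 ± 9.26 CPM in AfaR cells, whereas the study saw no drop of E-cadherin protein on Western blots. Whether the carcinoma cells themselves expressed the markers of other cell types was not tested. The part of these markers in the fall of the lineage factors was not tested either.

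In Cal27 ErlR cells, TP63 rose and EHF and ELF3 fell, 3 of 9 genes, beside 27.6% of all genes tested (12.3% higher and 15.3% lower). The total of 4216 became 2256 without Cal27 parental replicate 2 and 2322 without ErlR replicate 1. The groups did not overlap for 5 of 9 genes, nor for 67.4% of all. The median log2 fold change of the 9 genes was -0.20, beside -0.03 for all genes. These cells share their parental controls with Cal27 AfaR. TP63 had 368 and 407 CPM, 1.71 times the parental mean (0.75, standard error 0.19, adjusted p = 0.0194). The call did not hold without Cal27 parental replicate 2 (adjusted p = 0.0692) or without Cal27 ErlR replicate 2 (0.0502). ELF3 fell to 5.87 and 11.4 CPM, a mean 8.31 times lower (-3.08, standard error 0.43, adjusted p = 0.00132), and without parental replicate 2 the value was -2.23 (adjusted p = 0.000397). EHF had 383 and 375 CPM (-0.57, standard error 0.17, adjusted p = 0.0354), below both parental libraries. The EHF call was lost with ERCC scaling (adjusted p = 0.0531), in the fit of 12 libraries (0.120), with the replicate block (0.0547) and without Cal27 parental replicate 2 (0.247), ErlR replicate 1 (0.117) or ErlR replicate 2 (0.118).

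The other 6 genes did not pass in Cal27 ErlR. SOX2 had few reads, with 13 and 3 counts (0.830 and 0.183 CPM) against 21 and 32 counts in parental cells (-1.63, standard error 0.66, adjusted p = 0.0948). Without ErlR replicate 1 the SOX2 value was -3.04 with an adjusted p of 0.0368. The values were -0.37 for PAX9, 0.26 for TFAP2A, -0.20 for KLF5, 0.15 for KLF4 and -0.03 for PITX1, with adjusted p from 0.318 to 0.890. Their parental and ErlR libraries overlapped, apart from those of KLF4.

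Of 16 basal genes bound by p63, 5 were higher and 2 lower in Cal27 ErlR, with a median of 0.33. S100A2 (2.06), LAMB3 (0.86) and ITGB4 (0.80) rose, and KRT14 (-3.19) and TRIM29 (-0.86) fell. Among other regulators, 1 of 21 was higher, BNC1 (1.20), a zinc finger gene of proliferating basal keratinocytes, and 6 were lower, BARX2 (-3.23), CEBPA (-1.61) and GATA3 (-1.12) most. Of the 14 relatives, SPDEF (-4.36), TP73 (-3.40) and SOX1 (-2.44) led 6 falls, and KLF10 (0.81) was among 2 that rose. Of 8 differentiated squamous genes 3 fell, S100A7 (-5.51), KRT13 (-2.01) and SCEL (-1.03). SPDEF, BARX2 and S100A7 had only 2, 7 and 4 counts over the 2 ErlR libraries, against 48, 71 and 204 in parental cells. Of the epithelial markers 5 of 8 fell, with KRT14, KRT8 (-1.62) and KRT17 (-1.13) most, and of the markers of other cell types 5 of 9 fell, CDH5 (-3.55), COL1A1 (-2.41) and PDGFRB (-2.39) most. The summed level of the latter was 12.4 to 21.6 CPM, and the part of these markers was not tested.

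In FaDu AfaR cells, KLF4 rose and KLF5 fell, 2 of 9 genes, beside 17.9% of 15092 genes tested (10.4% higher and 7.50% lower). These 2695 genes became 278 without FaDu parental replicate 1, 837 without parental replicate 2 and 804 without AfaR replicate 2. The groups did not overlap for 6 of 9 genes, nor for 65.0% of all. KLF5 had 117 and 104 CPM in parental and 39.4 and 41.9 CPM in AfaR cells, a mean 2.71 times lower (-1.46, standard error 0.14, adjusted p = 0.00107). KLF4 went from 18.2 and 27.5 CPM to 51.8 and 70.0 CPM, 2.66 times higher (1.39, standard error 0.30, adjusted p = 0.0165). Neither pair of groups overlapped. The KLF4 call was lost without FaDu parental replicate 1 (adjusted p = 0.132) or without AfaR replicate 2 (0.0956).

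The remaining genes did not pass in FaDu AfaR. TP63 had 174 and 196 CPM against 185 and 163 CPM in parental cells (0.07, 95% confidence interval -0.19 to 0.33, adjusted p = 0.695). SOX2 had 6.59 and 9.74 CPM against 4.37 and 5.45 CPM (0.72, adjusted p = 0.0996). ELF3 had 83.1 and 142 CPM against 145 and 167 CPM (-0.49, adjusted p = 0.241). The 2 FaDu AfaR libraries stood apart for ELF3 and for EHF, which had 15.4 and 31.0 CPM (0.28, adjusted p = 0.518). PAX9 (-0.30), TFAP2A (0.19) and PITX1 (-0.01) had adjusted p from 0.150 to 0.954.

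Of 17 basal genes bound by p63, all tested, 1 was higher and 2 lower in FaDu AfaR, with a median of 0.23. CDH3 (0.51) rose, and ITGA6 (-0.84) and S100A2 (-0.81) fell. Of 22 other regulators 2 rose, FOXE1 (1.43) and TRPS1 (0.92), and 4 fell, FOXQ1 (-1.92), BARX2 (-0.67) and SOX7 (-0.52) most. Of 10 differentiated genes 3 fell, KRT4 (-3.69), KRT13 (-3.60) and SCEL (-2.33), and PPL (0.43) rose. The 2 AfaR libraries differed widely for KRT4 (7.48 ± 9.89 CPM) and KRT13 (11.0 ± 13.5 CPM), so the size of these falls is uncertain. Of 12 relatives 2 rose, KLF6 (0.81) among them, and KLF10 (-0.66) fell. KRT8 (-1.47) and KRT18 (-1.23) fell and CDH1 (0.69) rose among the 8 epithelial markers. None of the 8 tested markers of other cell types passed in edgeR (3 had an unadjusted p under 0.05).

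In FaDu ErlR cells, PAX9 alone passed, 1 of 9 genes, beside 4.18% of all genes tested (2.58% higher and 1.60% lower). These 631 genes became 68 without FaDu parental replicate 1, 72 without parental replicate 2 and 83 without ErlR replicate 2. The groups did not overlap for 8 of 9 genes, nor for 53.7% of all. PAX9 went from 78.7 and 71.5 CPM to 54.4 and 45.3 CPM (-0.60, standard error 0.14, adjusted p = 0.0449). The call was lost with ERCC scaling (-0.10, adjusted p = 0.673), in the fit of 12 libraries (0.0667), with the replicate block (0.0698) and without FaDu parental replicate 1 (0.260), parental replicate 2 (0.158) or ErlR replicate 2 (0.213). SLC25A21 shares 8.0% of the PAX9 exon bases on the other strand and had 5.35 to 7.84 CPM in these 4 libraries.

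EHF was close to the threshold in FaDu ErlR. It had 36.0 and 48.1 CPM against 20.1 and 17.8 CPM, 2.22 times the parental mean with no overlap (1.14, standard error 0.28, adjusted p = 0.0575), and passed with DESeq2 (0.00325), in the fits of 4 (0.0218) and 12 libraries (0.0322), and without either AfaR library. TP63 had 238 and 219 CPM against 185 and 163 CPM (0.38, adjusted p = 0.0959) and passed with DESeq2 (0.0426). ELF3 had 101 and 57.8 CPM (-0.98, adjusted p = 0.0841), and passed without ErlR replicate 1 (-1.44, adjusted p = 0.0336). SOX2 (-0.85), KLF5 (-0.42), TFAP2A (0.19), PITX1 (-0.17) and KLF4 (0.00 to 2 decimals) had adjusted p from 0.129 to 0.998. Under ERCC scaling the median of all genes was 0.49 here, and TP63 (0.88), TFAP2A (0.67) and EHF (1.61) passed while PAX9 did not.

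Few genes of the other lists passed in FaDu ErlR. None of the 17 basal genes bound by p63 did in edgeR (8 had an unadjusted p under 0.05), and BNC1 (0.77), KLF6 (0.91) and KRT4 (-4.41) were the single genes called among other regulators, relatives and differentiated genes. None of 8 epithelial markers (4 at an unadjusted p under 0.05) and none of 8 tested markers of other cell types (1 at an unadjusted p under 0.05) passed.

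**Figure D3:**
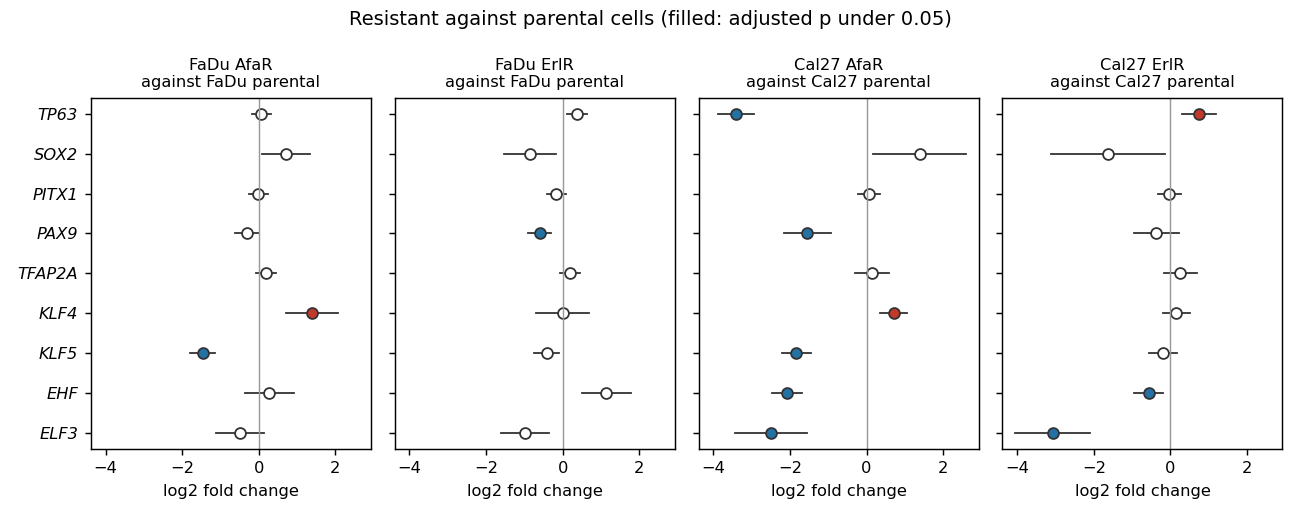
Log2 fold change of each gene against the parental cells of its line, with 95% confidence intervals from the fit, where filled points passed an adjusted p of 0.05 (red higher, blue lower). TP63 (-3.41), PAX9, KLF5, EHF and ELF3 lie left of 0 in Cal27 AfaR, and KLF5 is the lowest point in FaDu AfaR (-1.46).

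AfaR and ErlR cells were also compared directly within each line. In FaDu, SOX2 (1.57, adjusted p = 0.0103) and KLF4 (1.40, 0.0171) were higher and KLF5 (-1.04, 0.00372) lower in AfaR, 3 of 9 genes beside 15.7% of all (8.06% higher and 7.65% lower). These 2371 genes became 786 without AfaR replicate 2, 1516 without ErlR replicate 1 and 710 without ErlR replicate 2. Libraries of AfaR and ErlR were separate for 7 of 9 genes and 60.1% of all. SOX2 and KLF4 each lost the call without AfaR replicate 2 or without ErlR replicate 2 (adjusted p between 0.0654 and 0.101). The other FaDu values were -0.86 for EHF (0.0655, and -1.45 with 0.0157 without AfaR replicate 2), -0.31 for TP63 (0.0935), 0.49 for ELF3, 0.30 for PAX9, 0.15 for PITX1 and 0.00 to 2 decimals for TFAP2A. In Cal27, SOX2 (3.02, 0.00328) and KLF4 (0.56, 0.0147) were higher and TP63 (-4.15, 2.23e-06), PAX9 (-1.17, 0.00638), KLF5 (-1.63, 7.99e-05) and EHF (-1.51, 0.000139) lower in AfaR, 6 of 9 beside 49.6% of all (26.5% higher and 23.2% lower). Here 7 of 9 genes, and 76.7% of all, had separate libraries. The mean of TP63 was 18.2 times higher in Cal27 ErlR than in Cal27 AfaR. KLF4 lost this call in the fit of 12 libraries (0.124) and without AfaR replicate 2 (0.0910) or ErlR replicate 1 (0.0730). The SOX2 value was 2.43 without AfaR replicate 1, 4.43 without ErlR replicate 1 and 2.27 without ErlR replicate 2, and passed each time. ELF3 (0.57), PITX1 (0.10) and TFAP2A (-0.12) did not pass.

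The order of the levels per kb changed with resistance. In FaDu AfaR, TP63 led (24.9 ± 2.09 CPM per kb), and PITX1 (16.7 ± 0.229), KLF4 (16.6 ± 3.51) and ELF3 (15.7 ± 5.82) overlapped behind it, with KLF5 down to 10.4 ± 0.457. In FaDu ErlR, TP63 (30.7 ± 1.77) stood above KLF5 (21.4 ± 4.00), and ELF3, EHF, TFAP2A, PAX9 and KLF4 overlapped in a chain further down. SOX2 had the lowest mean in all 3 FaDu groups, though its libraries overlapped those of EHF in FaDu AfaR. In Cal27 AfaR, EHF still led, but PITX1, TFAP2A, KLF4 and KLF5 all stood above TP63 (2.86 ± 0.941 CPM per kb), which was sixth, and PAX9 was last (0.535 ± 0.0775). In Cal27 ErlR, EHF (86.4 ± 1.36) and TP63 (52.0 ± 3.72) led, and ELF3 (1.20 ± 0.539) overlapped PAX9 (1.23 ± 0.159) near the bottom, above SOX2 alone. In parental FaDu, 3.5% of the summed level per kb of the 9 genes was EHF. Its share was 56.8% in parental Cal27, then 38.0% (AfaR) and 44.5% (ErlR).

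The change in AfaR differed between the lines for TP63, PAX9, EHF and ELF3, 4 of 9 genes, beside 18.6% of all genes, and all 4 were lower in Cal27 (10.5% of all genes were). The AfaR total of 3013 genes became 1893 and 1946 without FaDu parental replicates 1 and 2. The difference, Cal27 minus FaDu, was -3.50 (standard error 0.25, adjusted p = 2.97e-06) for TP63, -2.38 (0.37, 0.000870) for EHF, -2.04 (0.58, 0.0278) for ELF3 and -1.26 (0.27, 0.00625) for PAX9. For KLF5 the difference was -0.39 (95% confidence interval -0.90 to 0.11, adjusted p = 0.276) and for KLF4 -0.70 (-1.53 to 0.12, 0.231), and these intervals leave room for unequal changes. SOX2 (0.65), PITX1 (0.06) and TFAP2A (-0.06) did not pass. The change in ErlR differed for EHF (-1.69, standard error 0.36, adjusted p = 0.00781) and ELF3 (-2.08, 0.59, 0.0279), 2 of 9, both lower in Cal27, beside 18.6% of all genes (8.80% higher and 9.80% lower). The ErlR total of 3021 became 1653 and 1892 without FaDu parental replicates 1 and 2, 1733 without Cal27 parental replicate 2 and 1831 without Cal27 ErlR replicate 1. The ErlR differences of TP63 (0.38), SOX2 (-0.77), PAX9 (0.25), KLF5 (0.23), KLF4 (0.17), PITX1 (0.15) and TFAP2A (0.09) did not pass. The ELF3 differences lost their calls when single libraries were left out. For AfaR these were each of FaDu parental replicates 1 and 2, FaDu AfaR replicate 2, Cal27 parental replicate 2 (-1.21, adjusted p = 0.123) and Cal27 AfaR replicates 1 and 2. For ErlR they were each of FaDu parental replicates 1 and 2, FaDu ErlR replicate 1, Cal27 parental replicate 2 (-1.24, adjusted p = 0.130) and Cal27 ErlR replicate 1.

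Genes of the other lists also differed between the lines in their AfaR change. Of 17 basal genes bound by p63, 10 had a lower change in Cal27 and 0 a higher one in edgeR (12 had an unadjusted p under 0.05), with a median difference of -2.18, against -0.04 for all genes. Of 22 other regulators 10 were lower and 2 higher, and of 8 epithelial markers, which share genes with the basal list, 5 were lower and 0 higher (6 at an unadjusted p under 0.05). For ErlR, none of the 17 basal genes passed in edgeR (9 had an unadjusted p under 0.05).

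Genes near TP63, EHF, ELF3, KLF5 and PAX9 did not all move with them in Cal27 AfaR. The neighbour counts are to be read beside all genes tested, of which 18.2% were lower and 19.5% higher. Of 6 tested genes within 1 Mb of TP63, 3 were lower and 2 higher, with log2 fold changes from -1.69 to 2.5. Around EHF, 3 of 17 were lower and 2 higher, around ELF3 6 of 26 lower and 6 higher, around KLF5 2 of 5 lower and 1 higher, and around PAX9 1 of 10 lower and 0 higher at an adjusted p under 0.05 in edgeR.

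**Figure D4:**
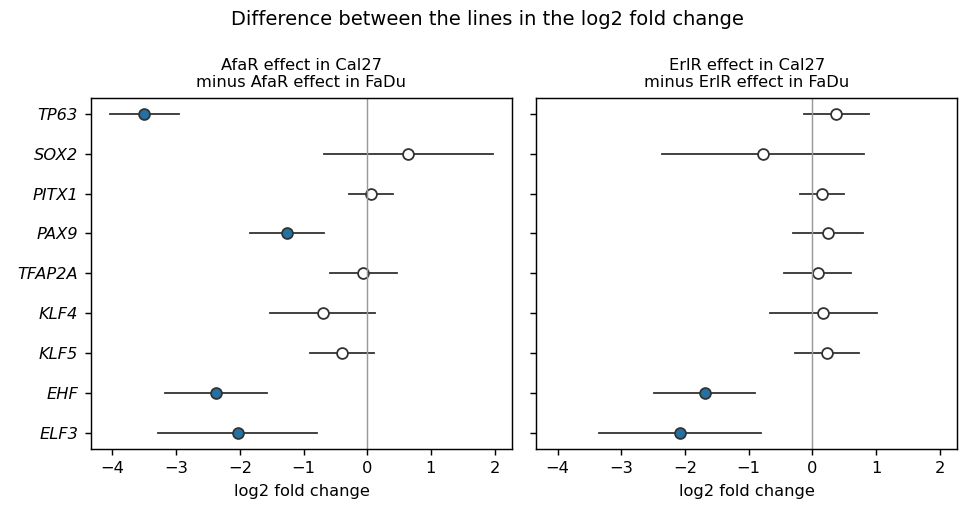
Difference between the lines in the log2 fold change of each gene (Cal27 minus FaDu) with 95% confidence intervals, where filled points passed an adjusted p of 0.05. TP63 (-3.50) has the largest AfaR difference, and EHF and ELF3 are filled for both inhibitors.

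Across the 12 libraries the genes varied by different amounts. The SD of log2(CPM + 1) was 0.078 for PITX1 and 0.286 for TFAP2A, and 1.62 for PAX9 and 1.90 for EHF. For each gene the 2 genes of nearest pattern among 10566 with a mean of at least 5 CPM were found by the root mean square difference of centred log2(CPM + 1) over the 12 libraries. For TP63 they were WNT7A (0.311) and SH3PXD2A (0.368), for SOX2 ANXA6 (0.319) and KSR1 (0.331), and for PAX9 PPFIA1 (0.309) and ENSG00000170089 (0.314). KLF4 was nearest to FGF2 (0.307) and DHRS4 (0.323), and KLF5 to PYGL (0.289) and P2RX5 (0.293). EHF was nearest to CXCL2 (0.475) and ESPN (0.512), and ELF3 to NGFR (0.445) and AIF1L (0.531). PITX1 (EIF4ENIF1, 0.081, and DGCR8, 0.088) and TFAP2A (TMLHE, 0.131, and MTRES1, 0.135) had the smallest distances. The distance is not scaled to how much a gene varies, so genes that vary little have small distances by construction. For PITX1 the nearest distance (0.081) was above its own SD (0.078), so it does not show a shared pattern. Among the 9 genes themselves, TFAP2A and PITX1, which varied least, were nearest (0.317), followed by KLF4 and SOX2 (0.589), and PAX9 and EHF farthest (3.36). The distance between TFAP2A and PITX1 was above the SD of either gene, so it does not show a shared pattern. That between KLF4 and SOX2 was only a little below the SD of KLF4 (0.648). All distances rest on the same 12 libraries and are descriptions.

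Overlapping genes limit some values, since the counting is not stated to use strand. ELF3 shares 16.9% of its exon bases with ELF3-AS1 and ENSG00000249007, which had at most 0.779 CPM in any library. PITX1 shares 8.3% with ENSG00000277619 (at most 0.232 CPM) and TFAP2A 5.3% with TFAP2A-AS1 (at most 2.26 CPM). TP63, SOX2, KLF4, KLF5 and EHF share 0 exon bases with another annotated gene.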

How the data were processed

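Poly(A) RNA of 12 libraries, with ERCC spike-ins added, was used. Per the labels, the authors' processing notes name Trimmomatic 0.36, STAR 2.5.2b, featureCounts of Subread 1.5.2 and GRCh38. The authors deposited raw counts per Ensembl gene, and tables of normalized counts, a signal made by dividing the counts of each library by a single size factor. No comparison columns of the authors were used, and 0 columns were left without a sample.

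The tests used edgeR 4.0.16 under R 4.3.3 (TMM, filterByExpr, glmQLFit, glmQLFTest, Benjamini-Hochberg), with 1 fit per line over 6 libraries (3 residual degrees of freedom) and 1 fit of 12 libraries (6 residual degrees of freedom) for the parental lines and the differences between lines. The scripts were tested on simulated data. Biological variation (edgeR's common coefficient) came to 14.5% for FaDu and 15.3% for Cal27. Spike-ins took 3.86% to 5.82% of reads and stayed out of library sizes. Gene positions were those deposited with the counts, and GENCODE on GRCh38 was used only to check them. The largest shift was at EHF, whose end lay 2231 bp further along in GENCODE. Promoters came from RefSeq on GRCh38.p14. Exon length was that of the deposited count files. Counting intervals and floors cover counting error only.

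The 9 genes and all gene lists were chosen with earlier results of these data known, as were the choice of printed promoters and the 6 motifs, all of which are reported, so p-values were adjusted over all genes tested and never over a list. Named genes were the 9 in every comparison, up to 3 rises and 3 falls of each other list per resistant comparison, genes whose exons overlap the 9, and the 2 genes nearest to each. Some genes that this rule names are not reported here. Neighbours within 1 Mb were added. Alternatives were upper-quartile and ERCC scaling, no filter, at least 10 counts in every library, DESeq2 1.42.0, unadjusted p-values, glmTreat against a fold change of 2, a replicate block, leaving out each library, fits of 4 or 12 libraries, and the deposited normalized counts in place of CPM.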

Additional observations from a re-analysis of the deposited data

Results flagged for a closer look

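In all, 6 results were singled out because the change against parental cells differed between the lines by the interaction test over 12 libraries. For AfaR the difference, Cal27 minus FaDu, was -3.50 for TP63, -1.26 for PAX9, -2.38 for EHF and -2.04 for ELF3 on the log2 scale. For ErlR it was -1.69 for EHF and -2.08 for ELF3. Groups of 2 libraries are too small for a test of single outlying libraries.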

How the results depend on the processing

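Of 81 values (9 genes in 9 comparisons) 32 passed in the tests reported, and 19 of these kept their direction and their side of the threshold under every alternative run for them other than glmTreat. SOX2 had too few reads for the setting of at least 10 counts in every library, so 2 of the 32, between the Cal27 resistant models and between parental lines, have no value there. None of the 32 changed sign under any alternative run. Against a fold change of 2 (glmTreat), the number of the 9 genes called fell to 0 in FaDu AfaR, FaDu ErlR, FaDu AfaR against ErlR and the ErlR difference, to 1 in Cal27 ErlR, and to 2 between the parental lines and for the AfaR difference. Calls over all genes fell as well, to 50, 7, 57, 374, 629, 2893 and 654 in that order. Under glmTreat PAX9 (adjusted p = 0.0916) and KLF4 also lost their calls in Cal27 AfaR. Calls over all genes there fell from 5745 to 1466. In Cal27 AfaR against ErlR, PAX9 (0.437) and KLF4 lost theirs too, while calls over all genes fell from 7579 to 2189. For FaDu ErlR, with 1 gene called, the count was 3 with DESeq2, 3 with ERCC scaling, 4 with no filter, 2 in the fit of 4 libraries and 6 at an unadjusted p under 0.05. Over all genes, with 631 called, these settings gave 1119, 5747, 1728, 699 and 3205. For FaDu AfaR against ErlR, with 3, it was 5 with ERCC scaling, no filter or an unadjusted p, where all genes went from 2371 to 4259, 3470 and 4978. The cause was not tested.

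Replicate numbers did not pair the libraries, since the correlations of same-numbered deviations ran from -0.249 to 0.161. With the replicate block the FaDu ErlR count was 0 (438 over all genes), PAX9 there and EHF in Cal27 ErlR lost their calls, EHF in FaDu AfaR against ErlR gained one (adjusted p = 0.0473), and KLF4 in FaDu ErlR (0.0097) and TFAP2A in FaDu AfaR against ErlR (0.000304) turned positive.

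Leaving out each library in turn gave counts of 1 to 2 in FaDu AfaR, 0 to 2 in FaDu ErlR, 1 to 3 in FaDu AfaR against ErlR, 6 to 7 in Cal27 AfaR, 1 to 3 in Cal27 ErlR, 5 to 6 in Cal27 AfaR against ErlR, 3 to 7 between parental lines, 3 to 4 for the AfaR difference and 1 to 2 for the ErlR difference. Calls over all genes in the same order ranged from 278 to 2619, 68 to 712, 710 to 2259, 3381 to 5978, 2256 to 3755, 5121 to 7621, 7152 to 9149, 1893 to 3045 and 1653 to 3036, so the ranges for the 9 genes are to be read beside these. Values that did not pass and changed sign ranged, in FaDu AfaR, from -0.31 to 0.68 for EHF and -0.023 to 0.16 for TP63. KLF4 in FaDu ErlR ranged from -0.56 to 0.40 and TFAP2A in FaDu AfaR against ErlR from -0.09 to 0.10. In Cal27 ErlR, KLF5 ranged from -0.45 to 0.0447, PITX1 from -0.10 to 0.0829 and TFAP2A from -0.0413 to 0.54. In Cal27 AfaR against ErlR, PITX1 ranged from -0.00761 to 0.17 and TFAP2A from -0.39 to 0.19. PITX1 ranged from -0.0231 to 0.16 in Cal27 AfaR and -0.15 to 0.0357 between parental lines. For the AfaR difference, PITX1 ranged from -0.0361 to 0.15 and TFAP2A from -0.21 to 0.0899, and for the ErlR difference KLF4 from -0.24 to 0.73, KLF5 from -0.0380 to 0.45 and TFAP2A from -0.24 to 0.34.

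ERCC scaling turned 17 values: in FaDu AfaR PITX1 (0.17), in FaDu ErlR PITX1 (0.33), KLF4 (0.52) and KLF5 (0.056), in FaDu AfaR against ErlR PITX1 (-0.16) and PAX9 (-0.0142), in Cal27 ErlR PITX1 (0.0034), between parental lines PITX1 (0.53), KLF4 (0.061) and KLF5 (0.21), for the AfaR difference PITX1 (-0.090), and for the ErlR difference TP63 (-0.10), PITX1 (-0.32), PAX9 (-0.24), TFAP2A (-0.39), KLF4 (-0.34) and KLF5 (-0.22). PITX1 between parental lines alone passed. On that scale the median of all genes was 0.18 in FaDu AfaR, -0.29 in FaDu AfaR against ErlR and at most 0.01 within Cal27. It was -0.18 for the AfaR difference and -0.49 for the ErlR difference, each lower than the turned values of that difference.

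PITX1 in FaDu AfaR turned to 0.0077 in the fit of 12 libraries, 0.0033 in that of 4, 0.019 with at least 10 counts and 0.061 with upper-quartile scaling. KLF4 in FaDu ErlR turned to 0.010, 0.0022, 0.0014 and 0.0055 under the same settings and 0.000964 with DESeq2. TFAP2A in FaDu AfaR against ErlR turned to 0.0059, 0.0028, 0.027 and 0.067, and 0.024 with no filter. With the deposited normalized counts, no log2 ratio of mean levels moved by over 0.0315. With 2 libraries per group, a value that did not pass is not shown to be equal, and SOX2 in Cal27 rests on 3 to 99 counts per library.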
